A study of Mus musculus with 15 samples.

Results

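The ventral striatum of male *Fmr1* KO mice was compared with that of WT males by RNA sequencing. The comparison used every male with deposited values, 7 of the 15 mice of the study, and the 15261 of 24982 listed genes whose mean value over all mice was at least 3 on the scale described below. The 3 *Fmr1* KO males (replicates 1, 3 and 4) were hemizygous for a knockout of the X-linked *Fmr1* gene on the C57BL/6J strain, and were set against 4 WT males of the same strain (replicates 1 to 4). All mice were 2 to 3 months old and had finished a battery of behavioral tests before the tissue was taken, with the 2 hemispheres of each mouse pooled. The KO line was bred within itself, from hemizygous males and homozygous females, so that genotype and litter or line of origin cannot be told apart. The authors left out 1 *Fmr1* KO male after their own principal component analysis. The *Fmr1* KO and WT females (n = 4 each) entered no test here, and their means are given only beside those of the males.

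The product of *Fmr1* is FMRP, which binds many neuronal mRNAs and holds back their translation, and whose loss causes fragile X syndrome. The ventral striatum, which holds the nucleus accumbens, is built mostly of GABAergic spiny projection neurons. These fall into a direct-pathway class, which carries the D1 dopamine receptor and makes dynorphin and substance P, and an indirect-pathway class, which carries the D2 receptor and makes enkephalin. Dopamine acts on both classes through cyclic AMP, protein kinase A and the phosphatase inhibitor DARPP-32, and glutamate acts on them through calcium and the Ras and ERK kinases.

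Every value below is a regularized log (rlog) value, a log2 expression level that the authors had corrected for library size and shrunk for low counts. A log2 difference is the mean of the *Fmr1* KO males minus that of the WT males, and shrinkage makes it smaller than the change in counts for genes of low level. Values of single mice are listed in the order of the replicate numbers. Since the tissue is bulk, fewer cells of a type and less RNA per cell cannot be told apart.

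Markers of striatal projection neurons were abundant in every male. *Ppp1r1b* (DARPP-32) lay between 13.35 and 13.95 in *Fmr1* KO males and between 13.77 and 14.20 in WT males, and *Drd1* between 11.60 and 12.10 in *Fmr1* KO males and between 12.18 and 12.51 in WT males. Markers of neighboring regions were present too, and their level differed between mice. Correlations between mice of 1 genotype ranged from 0.995 to 0.999 over the tested genes. *Fmr1* KO male 1 stood apart in thalamic markers and WT male 3 lay among the KO males on the first principal component, which held 61.6% of the variance of the 1000 most variable genes (scores of 14.7, 6.38 and 0.44 in *Fmr1* KO males, against -5.18, -10.2, 3.42 and -9.51 in WT males). The duplicated globin genes *Hba-a1* and *Hbb-bs* were listed at 0 in all males, so that blood could not be followed through them.

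*Fmr1*, on chromosome X (GRCm38, 68678541 to 68717963, plus strand), had rlog values of 9.87, 9.95 and 9.96 in *Fmr1* KO males, against 10.66, 10.88, 10.79 and 10.87 in WT males. All KO values lay below all WT values. *Fmr1* fell by 0.87 (SE 0.06) on the log2 scale, with an adjusted p of 0.00600 in limma. In this fit it was the only gene with an adjusted p under 0.05. An exact permutation test over the 7 mice gave p = 0.0286 (two-sided), the smallest value that the 35 possible assignments allow. With the replicate number as a block, which keeps 6 mice, the difference was -0.85 and the adjusted p was 0.0729. With a mean of 9.93 in *Fmr1* KO males, transcript of the gene was still read in every one of them. By qPCR the paper found *Fmr1* mRNA in KO striatum to be very low but detectable, and by Western blot it found no FMRP there. The rlog difference should therefore not be read as the share of transcript that is left.

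An annotated *Fmr1* promoter, the first of 2 in the RefSeq table used here, is shown because the genotype of the KO males rests on this gene. It covers 250 bases before and 50 bases after the annotated start, at chrX:68678291-68678590 on the plus strand of GRCm38.p6 (RefSeq). The capitals mark, from 5′ to 3′, the palindrome GCGCATGCGC recognized by NRF-1, which begins 93 bases before the start, 2 GC boxes with the letters GGGCGG, which begin 57 and 43 bases before it, and the E-box CACGTG, 11 bases before it.
Fmr1 promoter: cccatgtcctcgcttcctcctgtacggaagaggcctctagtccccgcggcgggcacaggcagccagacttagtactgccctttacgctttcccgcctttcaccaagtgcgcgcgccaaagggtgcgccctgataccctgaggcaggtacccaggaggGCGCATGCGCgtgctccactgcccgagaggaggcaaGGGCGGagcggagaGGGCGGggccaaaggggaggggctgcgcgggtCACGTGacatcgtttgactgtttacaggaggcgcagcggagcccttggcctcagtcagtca
On either strand, the NRF-1 palindrome was held by 0.971% of 32851 RefSeq promoters of this length, the E-box by 7.15% and the GC box by 35.7%. None of these motifs overlaps another, and a match describes the letters only.

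**Figure D1:**
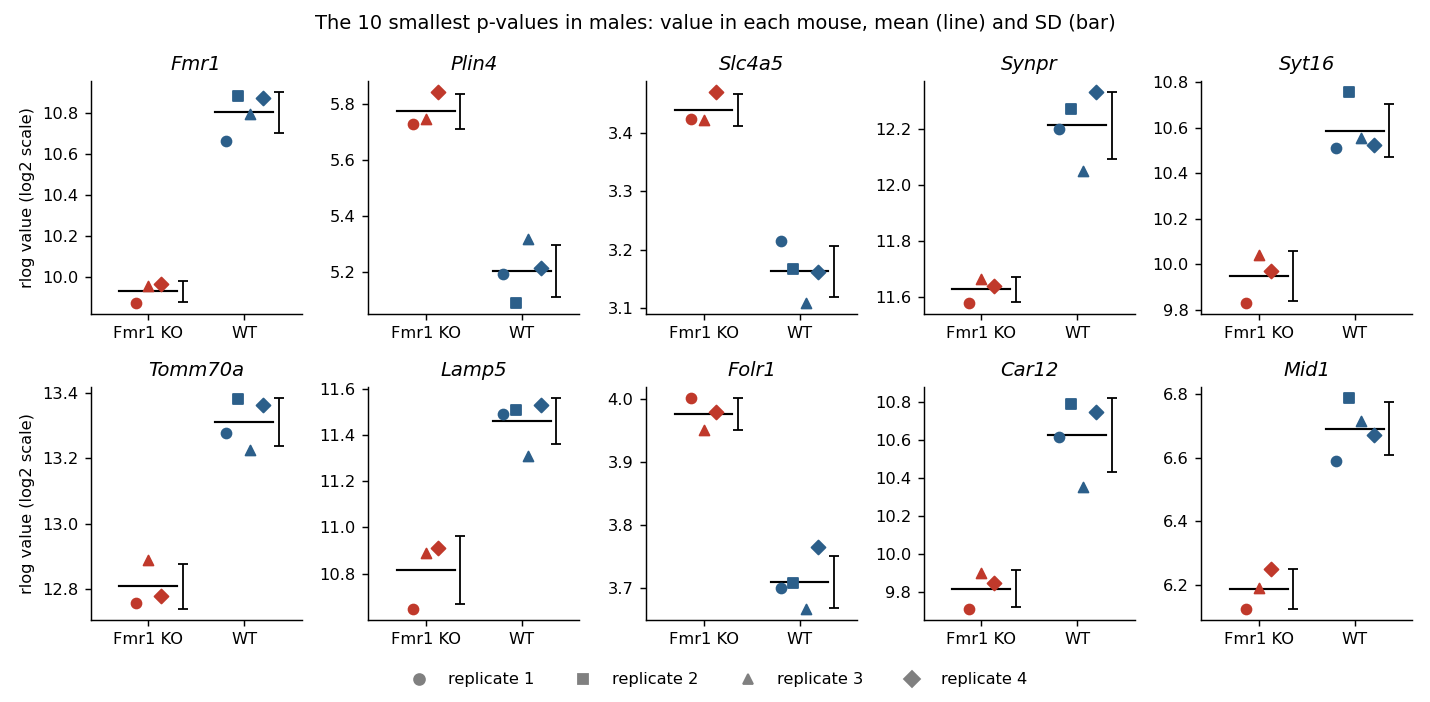
The 10 genes with the smallest p-values in males, with the rlog value (log2 scale) of each mouse on the vertical axis, *Fmr1* KO males on the left in red and WT males on the right in blue; symbols give the replicate number, lines the group mean and bars the SD. In all 10 genes the 3 KO males lie on 1 side of the 4 WT males, and WT male 3 (triangle) lies nearest to the KO males in *Synpr*, *Lamp5*, *Car12*, *Tomm70a* and *Plin4*.

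Of the 15261 tested genes, 1 was lower in *Fmr1* KO males and 0 were higher at an adjusted p under 0.05 (0.00655% and 0% of genes). The paper, with its own test on read counts at a false discovery rate under 0.05, reported many more genes in males, in both directions. Limma was run here on shrunken rlog values instead, and what made the counts of genes differ was not tested. The low count here is therefore no evidence that other genes were unchanged. At an unadjusted p under 0.05, 1290 genes were lower (8.45%) and 1335 were higher (8.75%), which is 17.2% in all. The 3 KO males lay below all 4 WT males in 1309 genes (8.58%) and above them in 1006 genes (6.59%). Both conditions held for 937 lower genes (6.14%) and 820 higher genes (5.37%). These shares are the background for every list below.

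The count of adjusted calls depended on single mice. Without WT male 3, limma called 148 genes lower (0.97%) and 174 higher (1.14%), 322 in all (2.11%). With sample quality weights, which gave WT male 3 a weight of 0.524 and WT male 1 a weight of 0.316 beside 1.83 and 1.71 in WT males 2 and 4, it called 914 lower (5.99%) and 951 higher (6.23%), and 4903 genes (32.1%) had an unadjusted p under 0.05. Without *Fmr1* KO male 1, without *Fmr1* KO male 3 or without WT male 4 the count in limma was 0, with 1410, 2057 and 1857 genes at an unadjusted p under 0.05 in those fits.

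**Figure D2:**
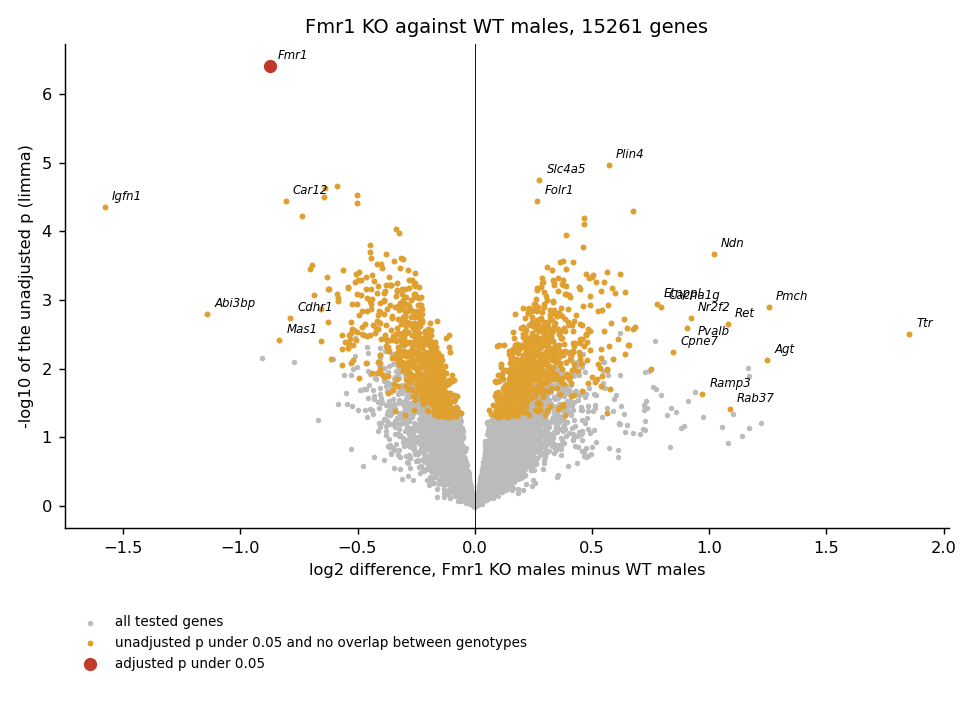
Each of the 15261 tested genes by its log2 difference (*Fmr1* KO minus WT males, horizontal axis) and the -log10 of its unadjusted limma p (vertical axis). *Fmr1* is the only gene past the adjusted threshold; *Igfn1* and *Ttr* lie at the far left and right, at -1.58 and 1.85.

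The genes named next had the lowest log2 differences among those with an unadjusted p under 0.05 and no overlap between genotypes. *Igfn1*, an immunoglobulin and fibronectin repeat protein best known from muscle, had values of 6.64, 6.92 and 7.25 in *Fmr1* KO males, against 8.44, 9.03, 8.13 and 8.46 in WT males. All KO values lay below all WT values, with a difference of -1.58 (SE 0.21, adjusted p = 0.0621). *Abi3bp*, an extracellular matrix protein, had 7.74, 8.57 and 7.99 in *Fmr1* KO males, against 8.92, 9.68, 8.84 and 9.53 in WT males (-1.14, SE 0.25, adjusted p = 0.117). KO male 3 came close to WT males 1 and 3 in this gene. *Car12*, a carbonic anhydrase that faces the extracellular space, had 9.71, 9.90 and 9.85 in *Fmr1* KO males, against 10.61, 10.79, 10.35 and 10.74 in WT males (-0.81, SE 0.10, adjusted p = 0.0593). *Calb1*, the calcium buffer calbindin, had 12.01, 11.88 and 11.47 in *Fmr1* KO males, against 12.40, 12.49, 12.42 and 12.65 in WT males (-0.70, SE 0.12, adjusted p = 0.110).

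*Htr1d*, an inhibitory serotonin receptor, had 7.62, 7.87 and 8.09 in *Fmr1* KO males, against 8.60, 8.50, 8.29 and 8.79 in WT males (-0.68, adjusted p = 0.110). Further leading genes of this direction were *Mas1*, the receptor for a short angiotensin fragment (-0.83), *Cdhr1*, a cadherin of photoreceptors (-0.79), *Ano2*, a chloride channel opened by calcium (-0.69), *Nwd2* (-0.66), *Rasgef1c*, an exchange factor for Ras-like GTPases (-0.65), and *Lamp5*, a lysosome-associated membrane protein of neurons (-0.64). Their adjusted p-values ran from 0.0593 in *Lamp5* to 0.138 in *Mas1* and *Nwd2*. Without WT male 3, 9 of the 12 leading lower genes passed the adjusted threshold, and those that did not were *Mas1*, *Cdhr1* and *Nwd2*. None of the 12 passed with any other mouse left out.

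In the other direction, *Ttr* had the highest difference. It encodes transthyretin, the carrier of thyroid hormone and retinol that the choroid plexus makes in very large amounts, and it had 9.89, 10.31 and 10.43 in *Fmr1* KO males, against 9.35, 8.14, 7.09 and 8.84 in WT males (1.85, SE 0.46, adjusted p = 0.133). The WT males differed among themselves by more than the means of the genotypes did. *Pmch*, the precursor of melanin-concentrating hormone from lateral hypothalamic neurons, had 5.78, 5.64 and 6.93 in *Fmr1* KO males, against 4.84, 4.83, 4.96 and 4.83 in WT males (1.25, adjusted p = 0.113), and KO male 4 was highest. *Agt*, angiotensinogen, which astrocytes make in brain, had 10.59, 10.13 and 10.37 in *Fmr1* KO males, against 9.59, 8.00, 9.62 and 9.26 in WT males (1.25, adjusted p = 0.160). The low value of WT male 2 widened this difference.

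*Ndn*, the imprinted gene for necdin, a growth-restraining protein of postmitotic neurons, had 11.98, 11.94 and 11.73 in *Fmr1* KO males, against 11.20, 10.47, 11.09 and 10.70 in WT males (1.02, SE 0.17, adjusted p = 0.110). Its lowest KO value lay well above its highest WT value. *Ret*, the signaling receptor for GDNF-family ligands, had 9.19, 8.72 and 8.36 in *Fmr1* KO males, against 7.68, 7.24, 8.25 and 7.54 in WT males (1.08, adjusted p = 0.127), and KO male 4 was only just above WT male 3. *Nr2f2*, a nuclear receptor (COUP-TFII) of ventral and caudal forebrain, had 9.46, 8.84 and 9.12 in *Fmr1* KO males, against 8.18, 7.87, 8.74 and 8.09 in WT males (0.92, adjusted p = 0.122).

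*Rab37*, a GTPase of secretory vesicles, had 8.91, 6.81 and 6.88 in *Fmr1* KO males, against 6.49, 6.34, 6.34 and 6.61 in WT males (1.09, adjusted p = 0.266). *Ramp3*, a partner of calcitonin-family receptors, had 8.89, 7.41 and 7.12 in *Fmr1* KO males, against 6.93, 6.78, 6.80 and 6.84 in WT males (0.97, adjusted p = 0.223). In both genes KO male 1, the mouse that was highest in thalamic markers, lay far above the others, and without it the differences were 0.40 in *Rab37* and 0.43 in *Ramp3*. The other leading genes were *Pvalb*, the calcium buffer parvalbumin of fast-spiking interneurons (0.90), *Cpne7*, a membrane-binding copine (0.85), *Cacna1g*, a low-threshold T-type calcium channel (0.79), and *Etnppl*, an astrocyte enzyme of phosphoethanolamine breakdown (0.78). Without WT male 3, 5 of the 12 leading higher genes passed the adjusted threshold, namely *Ret*, *Ndn*, *Nr2f2*, *Cacna1g* and *Etnppl*. With any other mouse left out, only *Pmch* passed, without KO male 4.

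The 10 smallest p-values belonged to genes with little spread within a genotype. After *Fmr1* came *Plin4*, a lipid droplet coat protein induced by glucocorticoids, with 5.73, 5.75 and 5.85 in *Fmr1* KO males, against 5.19, 5.09, 5.32 and 5.22 in WT males (0.57, SE 0.06, adjusted p = 0.0593). The same adjusted p was reached by 8 more genes. *Synpr*, the synaptic vesicle protein synaptoporin, had 11.58, 11.66 and 11.64 in *Fmr1* KO males, against 12.20, 12.27, 12.05 and 12.33 in WT males (-0.59). *Tomm70a*, an import receptor of the mitochondrial outer membrane, had 12.76, 12.89 and 12.78 in *Fmr1* KO males, against 13.28, 13.38, 13.23 and 13.36 in WT males (-0.50). *Mid1*, an X-linked ubiquitin ligase bound to microtubules, had 6.13, 6.19 and 6.25 in *Fmr1* KO males, against 6.59, 6.79, 6.71 and 6.67 in WT males (-0.50). *Syt16*, an atypical synaptotagmin, differed by -0.64. *Slc4a5* and *Folr1*, the bicarbonate transporter and folate receptor of the choroid plexus, differed by 0.28 and 0.27 at rlog levels below 4.1 in every male, where shrinkage is strong.

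Gene lists were then read against the shares of all genes. Of all genes, 49.9% lay on the lower side and 50.1% on the higher side, whatever the size. All 18 markers shared by striatal projection neurons were on the lower side in *Fmr1* KO males, 13 of them at an unadjusted p under 0.05 (8.45% of all genes lay on that side at that p) and 0 at an adjusted p under 0.05, with a median log2 difference of -0.38, against a median near 0 for all genes. *Arpp21*, a cyclic AMP-regulated phosphoprotein, had 14.02, 14.17 and 14.19 in *Fmr1* KO males, against 14.58, 14.71, 14.46 and 14.73 in WT males (-0.49). *Rarb*, a retinoic acid receptor, had 10.57, 10.82 and 10.77 in *Fmr1* KO males, against 11.12, 11.38, 11.02 and 11.29 in WT males (-0.48). The genotypes did not overlap in 3 of the 18, these genes and *Gnal*. *Pde7b*, a cyclic AMP phosphodiesterase, and *Gnal*, the G protein alpha subunit that couples D1 receptors to adenylate cyclase, differed by -0.38 and -0.29. The median ranged from -0.52 to -0.27 as each mouse was left out in turn. The list score, the mean of the members after each was centered on the 7 males, was -0.44, -0.28 and 0.06 in *Fmr1* KO males, against 0.17, 0.24, -0.07 and 0.31 in WT males. KO male 4 and WT male 3 thus crossed, and the groups overlapped.

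Of 9 direct-pathway markers, 7 were on the lower side, 5 at an unadjusted p under 0.05 (median -0.29). *Drd1*, the D1 dopamine receptor, had 11.60, 11.88 and 12.10 in *Fmr1* KO males, against 12.32, 12.51, 12.18 and 12.51 in WT males (-0.52, adjusted p = 0.128). *Tac1*, the substance P precursor, had 10.95, 11.30 and 11.08 in *Fmr1* KO males, against 11.67, 11.49, 11.37 and 11.45 in WT males (-0.38). *Pdyn*, the dynorphin precursor, had 11.04, 11.42 and 10.52 in *Fmr1* KO males, against 11.71, 11.62, 11.53 and 11.55 in WT males (-0.61), with KO male 4 lowest and a difference of -0.38 without it. *Slc35d3*, a protein of D1 receptor trafficking, differed by -0.46. The direct-pathway score did not overlap between genotypes, with -0.27, -0.07 and -0.13 in *Fmr1* KO males, against 0.14, 0.13, 0.03 and 0.16 in WT males. Without KO male 1 the median was -0.15, and with an adjusted p 0 of the 9 passed.

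All 6 indirect-pathway markers were on the lower side, 2 of them at an unadjusted p under 0.05 (median -0.33, and -0.51 without KO male 4). *Penk*, the enkephalin precursor, had 13.62, 13.77 and 13.89 in *Fmr1* KO males, against 14.43, 14.25, 14.07 and 14.30 in WT males (-0.50), with no overlap. *Gpr52*, an orphan receptor that raises cyclic AMP, had 8.55, 8.67 and 8.83 in *Fmr1* KO males, against 9.01, 9.26, 8.93 and 9.27 in WT males (-0.43). *Drd2*, the D2 dopamine receptor that defines this class, had 11.31, 11.42 and 12.05 in *Fmr1* KO males, against 11.94, 11.91, 11.64 and 12.05 in WT males (-0.29), with overlap. Its difference was -0.15 without KO male 1 and -0.52 without KO male 4. Whether the direct and indirect classes differed in their change was not tested.

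**Figure D3:**
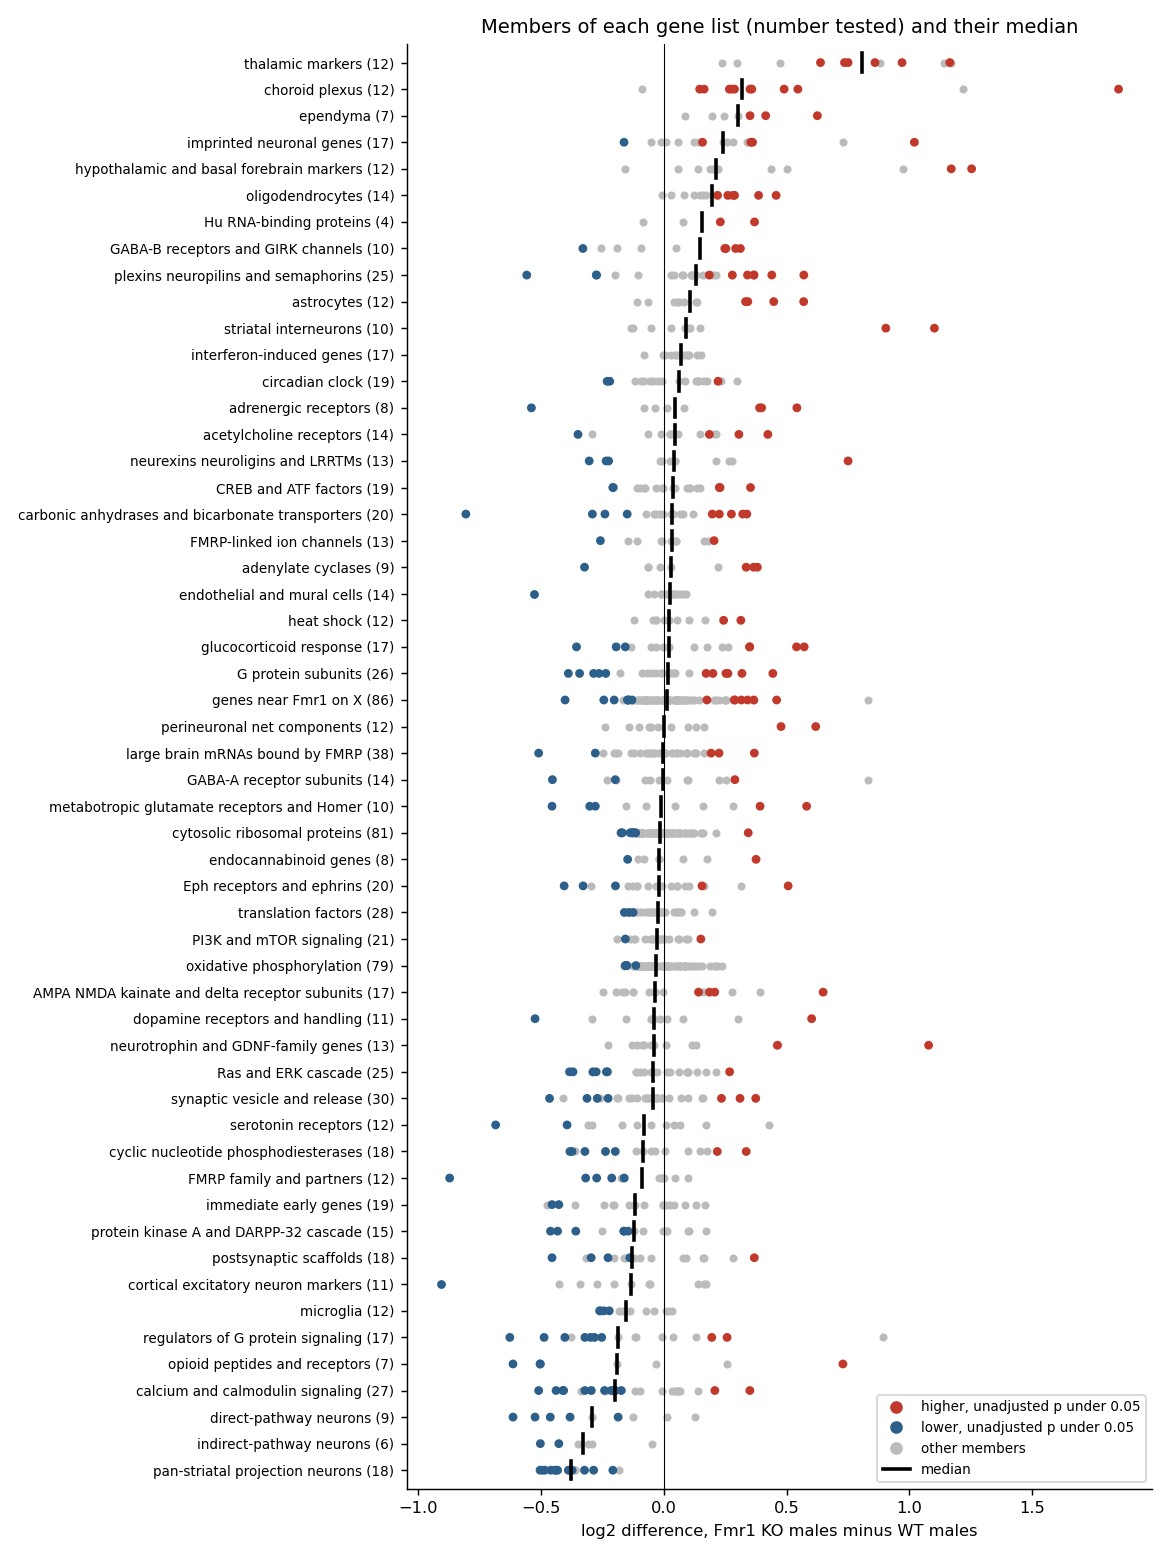
The log2 difference (*Fmr1* KO minus WT males, horizontal axis) of every tested member of each gene list, with the number tested in parentheses; red points are higher and blue points lower with an unadjusted p under 0.05, grey points are the other members and the black bar is the median. Projection neuron lists lie lowest, down to a median of -0.38, and thalamic markers highest, at 0.81.

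Thalamic and hypothalamic markers lay on the higher side. All 12 thalamic markers were on the higher side, 6 at an unadjusted p under 0.05 (median 0.81), and the median was 0.34 without KO male 1. *Slc17a6*, the vesicular glutamate transporter of subcortical neurons, had 11.07, 9.82 and 9.98 in *Fmr1* KO males, against 9.24, 8.72, 9.84 and 8.70 in WT males (1.16), and WT male 3 overlapped the KO range. Without KO male 1 the difference was 0.78. *Cbln1*, a synaptic organizer, had 8.35, 7.47 and 7.37 in *Fmr1* KO males, against 6.84, 6.91, 7.31 and 6.86 in WT males (0.75, and 0.44 without KO male 1). The thalamic score was 1.36, 0.07 and -0.10 in *Fmr1* KO males, against -0.32, -0.52, -0.01 and -0.48 in WT males, so that KO male 1 lay far above the rest. Of 16 hypothalamic and basal forebrain markers, 12 passed the minimum, 11 of them on the higher side and 2 at an unadjusted p under 0.05 (median 0.21, and 0.42 without WT male 3). *Baiap3*, a protein of secretory granule trafficking, had 11.49, 11.39 and 10.82 in *Fmr1* KO males, against 10.17, 9.41, 11.11 and 9.57 in WT males (1.17). The hypothalamic score was 0.34, 0.31 and 0.09 in *Fmr1* KO males, against -0.13, -0.48, 0.36 and -0.48 in WT males. WT male 3 was the highest mouse on this score.

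Cortical excitatory markers were on the lower side in 8 of 11 (median -0.13, and -0.45 without KO male 4), with 1 at an unadjusted p under 0.05, the vesicular zinc transporter *Slc30a3* (-0.91), and the median was 0.03 without KO male 1. In a further fit, a score of the neighboring-region markers (the mean of the thalamic and the hypothalamic and basal forebrain members) was added as a covariate. The median of the 18 shared projection neuron markers was then -0.07, that of the direct-pathway markers -0.14 and that of the indirect-pathway markers -0.07. The median of the cortical excitatory markers changed sign, to 0.35. In that fit the *Fmr1* difference was -0.80 with an adjusted p of 0.181, and 847 genes had an unadjusted p under 0.05 in place of 2625. The score itself differed between mice as described above, so that such a fit also takes up part of the difference between genotypes.

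The choroid plexus and thalamic scores ranked the mice of each genotype in the same order. Unlike the thalamic list, the choroid plexus list did not set KO male 1 far apart. Of its 12 members, 11 were on the higher side, 10 at an unadjusted p under 0.05 and 7 with no overlap between genotypes (median 0.32, between 0.29 and 0.36 as each mouse was left out). *Kl*, the anti-aging hormone klotho, had 7.30, 7.58 and 7.59 in *Fmr1* KO males, against 7.10, 6.81, 7.13 and 6.97 in WT males (0.49). *Enpp2*, the secreted enzyme autotaxin, had 12.85, 12.69 and 13.02 in *Fmr1* KO males, against 12.60, 12.41, 12.54 and 12.46 in WT males (0.35). It lay above *Ttr* in every male. Among the KO males it was lowest in KO male 3, as was the oligodendrocyte gene *Myrf* below. Which cells it came from was not tested. The choroid plexus score was 0.30, 0.30 and 0.24 in *Fmr1* KO males, against -0.13, -0.38, -0.09 and -0.24 in WT males. All 3 KO males were thus above all WT males, and without WT male 3, 4 of the 12 members passed the adjusted threshold. No member passed with any other mouse left out. The ependymal list had all 7 members on the higher side, 3 at an unadjusted p under 0.05 (median 0.30), but the median was 0.04 without KO male 1. Its examples *Foxj1*, the master factor of motile cilia, and *Ccdc153* differed by 0.41 and 0.63, and without KO male 1 by 0.26 and 0.27. With the neighboring-region score in the fit, the choroid plexus median was 0.21, and the part of the dissection in it was not tested.

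Among glia, 13 of 14 oligodendrocyte markers were on the higher side, 6 at an unadjusted p under 0.05 (median 0.20). *Myrf*, the factor that switches on myelin genes, had 11.07, 10.75 and 11.07 in *Fmr1* KO males, against 10.69, 10.32, 10.43 and 10.59 in WT males (0.46), and *Ermn*, a myelin cytoskeletal protein, differed by 0.39. Astrocyte markers were on the higher side in 10 of 12, 4 at an unadjusted p under 0.05 (median 0.11, 0.06 without KO male 4 and 0.17 without KO male 3), with *Gfap*, the intermediate filament, at 0.57, *Gjb6*, a gap junction subunit, at 0.45 and *Slc7a10*, an amino acid exchanger, at 0.33. Microglial markers were on the lower side in 9 of 12, 4 at an unadjusted p under 0.05 (median -0.15, and -0.09 without KO male 1), and *Siglech*, a sialic acid-binding lectin, differed by -0.24. With the neighboring-region score in the fit the microglial median was 0.03, and with the score of the shared projection neuron markers 0.08. WT male 1 had the highest microglial score, at 0.32. Of 14 endothelial and mural markers, 1 had an unadjusted p under 0.05, the smooth muscle protein *Tagln* (-0.53, median of the list 0.03).

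**Figure D4:**
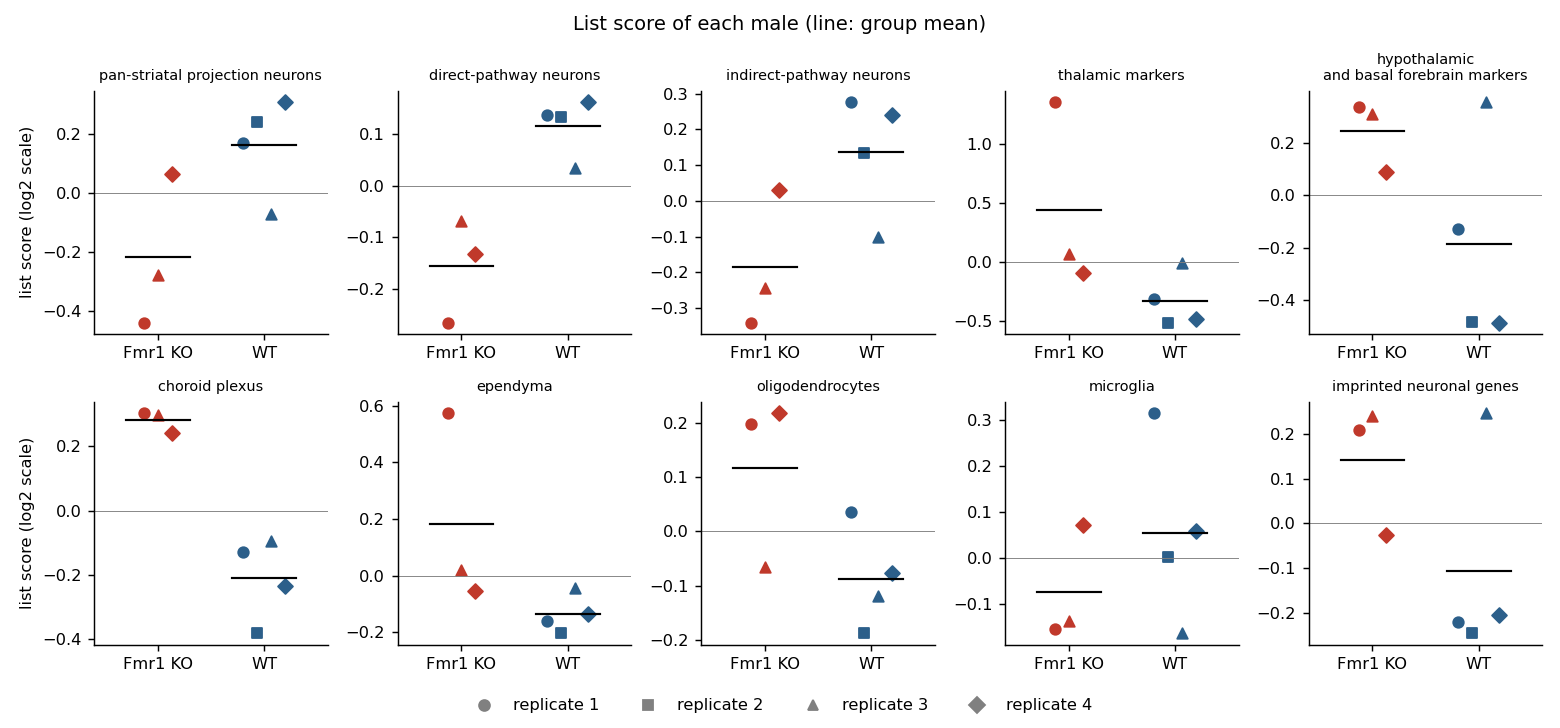
The score of 10 gene lists in each male (vertical axis, log2 scale, mean of the centered members), with *Fmr1* KO males on the left in red, WT males on the right in blue, symbols for replicate numbers and lines for group means. The choroid plexus and direct-pathway scores do not overlap between genotypes, the thalamic and ependymal scores are led by KO male 1, and WT male 3 lies among the KO males in the imprinted and hypothalamic lists.

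Receptors for transmitters lay on both sides, and the counts of lower and higher members are again those with an unadjusted p under 0.05. Of 11 dopamine receptor and handling genes tested, 1 was lower (*Drd1*) and 1 higher by the unadjusted p (median -0.04, near 0 without KO male 1). Opioid peptides and receptors had 3 lower and 1 higher of 7 (median -0.19, but 0.01 without KO male 1 and -0.38 without KO male 4), and *Oprk1*, the kappa receptor for dynorphin, had 9.60, 9.82 and 9.52 in *Fmr1* KO males, against 9.93, 10.32, 10.12 and 10.23 in WT males (-0.50). Among 12 serotonin receptors, 2 were lower and 0 higher (median -0.08, -0.13 without KO male 3 and -0.04 without KO male 4), with *Htr1d* described above. Among 8 adrenergic receptors, *Adra2c*, an inhibitory receptor abundant in striatum, had 8.35, 8.55 and 8.58 in *Fmr1* KO males, against 9.15, 9.06, 8.77 and 9.14 in WT males (-0.54). The alpha-1 receptors *Adra1d* and *Adra1b* were higher by 0.39 and 0.54, with 3 of 8 higher in all. *Adra1b* had its highest value, 7.76, in KO male 1, and differed by 0.29 without it.

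Metabotropic glutamate receptors and Homer proteins, the signaling group most studied in fragile X models, had 3 of 10 members lower and 2 higher by the unadjusted p (median -0.01, -0.10 without KO male 1 and 0.06 without KO male 3). *Grm5*, the group I receptor on projection neurons, had 12.96, 13.14 and 12.98 in *Fmr1* KO males, against 13.07, 13.39, 13.28 and 13.48 in WT males (-0.28, adjusted p = 0.220), and WT male 1 overlapped the KO range. *Homer1*, its scaffold, differed by -0.46 and *Grm3*, an inhibitory receptor, by -0.30. *Grm2*, an inhibitory presynaptic receptor, had 7.56, 6.96 and 7.05 in *Fmr1* KO males, against 6.69, 6.53, 6.68 and 6.53 in WT males (0.58). Among 17 ionotropic subunits, 4 were higher and 0 lower, led by the NMDA subunit *Grin2d* (0.65), with a median of -0.03, and of 0.01 without KO male 1.

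GABA receptor genes went both ways as well. *Gabrd*, the delta subunit of extrasynaptic GABA-A receptors, had 10.73, 10.43 and 10.67 in *Fmr1* KO males, against 11.18, 11.13, 10.72 and 11.22 in WT males (-0.45), where WT male 3 lay among the KO males. Of 14 GABA-A subunits, 2 were lower and 1 higher (median near 0). *Slc6a11*, the astrocyte GABA transporter, was higher by 0.52. In the list of 10 GABA-B receptor and GIRK channel genes, 1 was lower and 4 higher (median 0.15, and 0.08 without KO male 1). With the score of the 18 shared projection neuron markers (the projection neuron score) or the neighboring-region score as a covariate, that median was -0.06 or -0.04. *Kctd12*, an auxiliary subunit that desensitizes GABA-B currents, had 11.32, 11.37 and 11.25 in *Fmr1* KO males, against 11.51, 11.66, 11.65 and 11.75 in WT males (-0.33), while *Gabbr2*, the coupling subunit, and *Kcnj6*, a GIRK channel, differed by 0.29 and 0.31, and *Gabbr2* by 0.14 without KO male 1.

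Of 15 genes of protein kinase A and DARPP-32 signaling, 6 were lower and 0 higher by the unadjusted p, and 4 did not overlap (median -0.12). Over all genes, 8.45% were lower by that p and 8.58% lower without overlap. With the projection neuron score in the fit the median was -0.06, and with the neighboring-region score -0.05. *Prkar2b*, a regulatory subunit of protein kinase A, had 11.42, 11.68 and 11.45 in *Fmr1* KO males, against 11.84, 11.92, 11.85 and 11.89 in WT males (-0.36). *Ppp1r1a*, a phosphatase inhibitor related to DARPP-32, differed by -0.46, and *Ppp2ca*, a catalytic phosphatase subunit, by -0.16. Among 9 adenylate cyclases, *Adcy5*, the main striatal form, had 13.75, 13.86 and 14.16 in *Fmr1* KO males, against 14.36, 14.28, 13.93 and 14.42 in WT males (-0.32), with overlap. *Adcy6*, its closest relative, had 10.23, 10.08 and 10.08 in *Fmr1* KO males, against 9.73, 9.74, 9.996 and 9.70 in WT males (0.34), and 3 of the 9 were higher.

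Regulators of G protein signaling, which speed the shutdown of G proteins, had 7 of 17 members lower and 2 higher (median -0.19, and -0.11 without KO male 3). Their median was -0.04 with the projection neuron score in the fit and -0.11 with the neighboring-region score. *Rgs14*, a scaffold of Ras and G protein signaling, had 10.01, 10.15 and 9.68 in *Fmr1* KO males, against 10.74, 10.60, 10.24 and 10.72 in WT males (-0.63). *Rgs10* had 9.78, 9.83 and 9.82 in *Fmr1* KO males, against 10.14, 9.97, 10.18 and 10.08 in WT males (-0.28). Of 26 G protein subunits, 5 were lower and 6 higher (median 0.02, and -0.01 without KO male 4), among them the gamma subunit *Gng10* (-0.26) and the beta subunit *Gnb3* (0.25, and 0.16 without KO male 1). Phosphodiesterases, which break down cyclic nucleotides, had 5 lower and 2 higher of 18 (median -0.08, -0.05 without KO male 1 and -0.13 without WT male 1). The cyclic AMP enzyme *Pde4b* differed by -0.20, and the cyclic GMP enzyme *Pde5a* by 0.34.

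Calcium and calmodulin signaling had 11 of 27 members lower and 2 higher by the unadjusted p, with 8 lower members that did not overlap (median -0.20). The shares over all genes were 8.45% lower by that p and 8.58% lower without overlap. The median of the list was -0.01 with the projection neuron score in the fit, -0.03 with the neighboring-region score and -0.11 after quantile normalization. *Itpr1*, a receptor that lets stored calcium out of the endoplasmic reticulum, had 13.81, 13.95 and 14.27 in *Fmr1* KO males, against 14.41, 14.71, 14.27 and 14.70 in WT males (-0.51). *Ppp3r1* and *Ppp3cb*, subunits of the phosphatase calcineurin, differed by -0.32 and -0.20, and *Camkv*, a kinase-like calmodulin-binding protein of spines, by -0.30. Of 25 genes of the Ras and ERK cascade, 6 were lower and 1 higher (median -0.04, and -0.02 without WT male 3). The ERK-activating kinase *Map2k1* differed by -0.23, the calcium-sensing exchange factor *Rasgrp1* by -0.37 and the Ras inhibitor *Rasal1* by 0.27.

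Transcription factors at the end of these cascades were spread over both sides. Among 19 CREB and ATF factors, 2 were lower and 3 higher (median 0.04, 0.01 without WT male 2 and 0.07 without KO male 3), with *Creb5* at 0.35, *Crem* at -0.21 and the coactivator *Crtc3* at 0.23. Immediate early genes had 2 lower and 0 higher of 19 (median -0.12), and *Egr3* had 10.65, 10.94 and 11.18 in *Fmr1* KO males, against 11.33, 11.44, 11.08 and 11.54 in WT males (-0.43). Without WT male 4 their median was 0.03, without KO male 1 -0.02 and without KO male 3 -0.24. Among 19 clock genes, 2 were lower and 1 higher (median 0.06, and -0.01 without KO male 1). The activator pair *Npas2* and *Arntl* differed by -0.23 and -0.22, and in *Npas2* the 3 KO males, at 10.19, 10.13 and 10.20, lay below the WT males, at 10.40, 10.50, 10.25 and 10.45.

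Glucocorticoid-responsive genes had 4 higher and 3 lower of 17 (median 0.02, 0.15 without KO male 1 and -0.01 without WT male 1). Beside *Plin4*, *Zbtb16*, a zinc finger repressor, had 8.28, 8.69 and 8.49 in *Fmr1* KO males, against 7.95, 7.78, 8.01 and 8.05 in WT males (0.54). *Tsc22d3*, the leucine zipper GILZ, had 10.63, 10.46 and 10.68 in *Fmr1* KO males, against 10.25, 10.09, 10.36 and 10.26 in WT males (0.35), and *Hif3a* differed by 0.35. In these 4 genes the genotypes did not overlap, and in 3 lower members of the list they did not overlap either. Over all genes, 6.59% were higher and 8.58% lower without overlap.

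FMRP acts on translation with partner proteins, and the mRNAs of 5 of the 12 genes of the FMRP family and its partners were lower at an unadjusted p under 0.05, *Fmr1* included, with 0 higher (median -0.09, and -0.05 without KO male 1). *Nckap1*, a subunit of the WAVE complex that links FMRP's partner CYFIP1 to actin, had 13.25, 13.35 and 13.41 in *Fmr1* KO males, against 13.59, 13.73, 13.59 and 13.70 in WT males (-0.32). *Wasf1* and *Abi1*, further WAVE subunits, differed by -0.27 and -0.16. Large brain mRNAs known to bind FMRP had 2 lower and 3 higher of 38 (median near 0), with the scaffold *Shank1* at 0.37 and the axonal motor *Kif1a* at 0.19. Of 13 ion channels linked to FMRP, 1 was lower and 1 higher, the potassium channels *Kcnd2* (-0.26) and *Kcnc1* (0.20).

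Genes of synapse structure and wiring were mixed. Postsynaptic scaffolds had 4 lower and 1 higher of 18 (median -0.13, and -0.06 without WT male 1), and *Dlg1*, the scaffold SAP97, had 12.03, 12.19 and 12.23 in *Fmr1* KO males, against 12.42, 12.53, 12.37 and 12.47 in WT males (-0.30). The scaffold median changed sign with the projection neuron score in the fit (0.08) and with the neighboring-region score (0.04). Of 13 neurexins, neuroligins and LRRTMs, 3 were lower and 1 higher, with *Nlgn1* at -0.30 and *Lrrtm3* at -0.24. The list of perineuronal net components had 2 of 12 higher and 0 lower, both of them link proteins that tie hyaluronan to proteoglycans. Whether these 2 came from nets or from other matrix was not tested. *Hapln2* had 9.11, 8.76 and 8.99 in *Fmr1* KO males, against 8.57, 8.23, 8.20 and 8.34 in WT males (0.62), and *Hapln4* differed by 0.48.

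Plexins, neuropilins and semaphorins, the guidance receptors and ligands of growing axons, had 20 of 25 members on the higher side, 7 higher and 3 lower at an unadjusted p under 0.05 (median 0.13, between 0.11 and 0.14 as each mouse was left out). *Plxna1* had 10.84, 10.86 and 10.65 in *Fmr1* KO males, against 10.29, 10.02, 10.51 and 10.04 in WT males (0.57), *Plxnb3* differed by 0.37 and *Sema6c* by 0.28. *Plxnd1*, a semaphorin receptor of direct-pathway neurons, had 10.48, 10.56 and 10.99 in *Fmr1* KO males, against 11.36, 11.31, 10.79 and 11.49 in WT males (-0.56). Eph receptors and ephrins had 3 lower and 2 higher of 20 (median -0.02, -0.06 without WT male 3 and 0.02 without WT male 4), among them *Ephb2* (0.51) and *Epha7* (-0.41). *Ret* and its coreceptor *Gfra2* (0.46) were the only 2 of 13 neurotrophin and GDNF-family genes with an unadjusted p under 0.05, and the RNA-binding protein *Elavl4*, which stabilizes neuronal mRNAs, was higher by 0.37.

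Imprinted neuronal genes had 14 of 17 tested members on the higher side, 4 higher and 1 lower at an unadjusted p under 0.05 (median 0.24, 0.15 without WT male 4 and 0.45 without WT male 3). *Ndn* led the list, *Plagl1*, a zinc finger factor of the imprinted network, differed by 0.35 and the noncoding *Peg13* by 0.16, while *Snrpn* differed by -0.16. The list score was 0.21, 0.24 and -0.02 in *Fmr1* KO males, against -0.22, -0.25, 0.25 and -0.20 in WT males. WT male 3 had the highest score of all males, and it was also the highest in the hypothalamic list. With the neighboring-region score in the fit, the median of the imprinted genes was near 0. Carbonic anhydrases and bicarbonate transporters had 4 lower and 5 higher of 20, with *Car12* at -0.81 and *Car14*, another membrane-bound form, at 0.34.

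Genes of protein synthesis and respiration differed little in size. Of 81 ribosomal protein genes tested, 8 were lower and 1 higher by the unadjusted p, while in 19 all KO males lay below all WT males (median -0.02). Over all genes, 8.45% were lower and 8.75% higher by that p, and 8.58% were lower without overlap. *Rpl5* had 10.37, 10.34 and 10.32 in *Fmr1* KO males, against 10.59, 10.50, 10.50 and 10.48 in WT males (-0.17), and *Rpl31* differed by -0.17. Ribosomal genes have many near-identical processed copies, so that their values are uncertain where reads could be split. Of 79 genes of oxidative phosphorylation, 6 were lower and 0 higher, with 12 lower members that did not overlap (median -0.03), such as *Ndufs4* (-0.16) and *Uqcrb* (-0.15) of complexes I and III. WT male 1 had the highest score on both lists (0.17 and 0.19). The medians without WT male 1 were 0.03 for ribosomal and 0.01 for oxidative phosphorylation genes. Of 28 translation factors, 3 were lower and 0 higher (median -0.02, -0.01 without KO male 1 and -0.04 without KO male 3), among them *Eif4a1* (-0.14) and *Pabpc1* (-0.16).

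Since a knockout line can carry a chromosome segment of the cells in which it was made, the genes within 10 Mb of *Fmr1* on the X chromosome were described apart. Of 181 listed genes there, 86 passed the minimum. Among them, 7 were lower and 7 higher by the unadjusted p (median 0.01). *Fundc2*, a mitochondrial outer membrane protein, had 10.07, 10.02 and 10.01 in *Fmr1* KO males, against 10.24, 10.23, 10.32 and 10.16 in WT males (-0.20). Elsewhere on the X, *Klhl13*, a ubiquitin ligase adaptor, had 11.54, 11.67 and 11.68 in *Fmr1* KO males, against 11.93, 11.94, 11.97 and 11.93 in WT males (-0.31), and *Xkrx* differed by -0.42. Over all chromosomes, between 13.7% and 21.1% of the tested genes had an unadjusted p under 0.05.

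The females share no mouse with the males, so their means can stand beside the differences above as a description. *Fmr1* differed by -0.81 between *Fmr1* KO and WT females. Of the 937 lower genes with both conditions in males, 87.3% had the same sign in females, as had 84.0% of the 820 higher genes and 63.0% of all tested genes. Among the 24 leading genes, 22 had the same sign. The exceptions were *Ttr*, with -0.32 in females, and *Nwd2*, with 0.00. The choroid plexus list had a median of 0.32 in males and 0.01 in females, and *Slc4a5*, *Folr1* and *Kl* were at -0.01, 0.03 and -0.06 in females. Other lists also had unlike medians in males and females, such as oligodendrocytes (0.20 and 0.02), astrocytes (0.11 and 0.02) and cortical excitatory markers (-0.13 and 0.22). The projection neuron markers had a female median of -0.52, with *Arpp21* at -0.50, *Penk* at -0.46 and *Drd1* at -0.54. *Mid1* differed by -0.91 and *Ndn* by 0.94 in females. Whether any of these differed between the sexes was not tested.

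**Figure D5:**
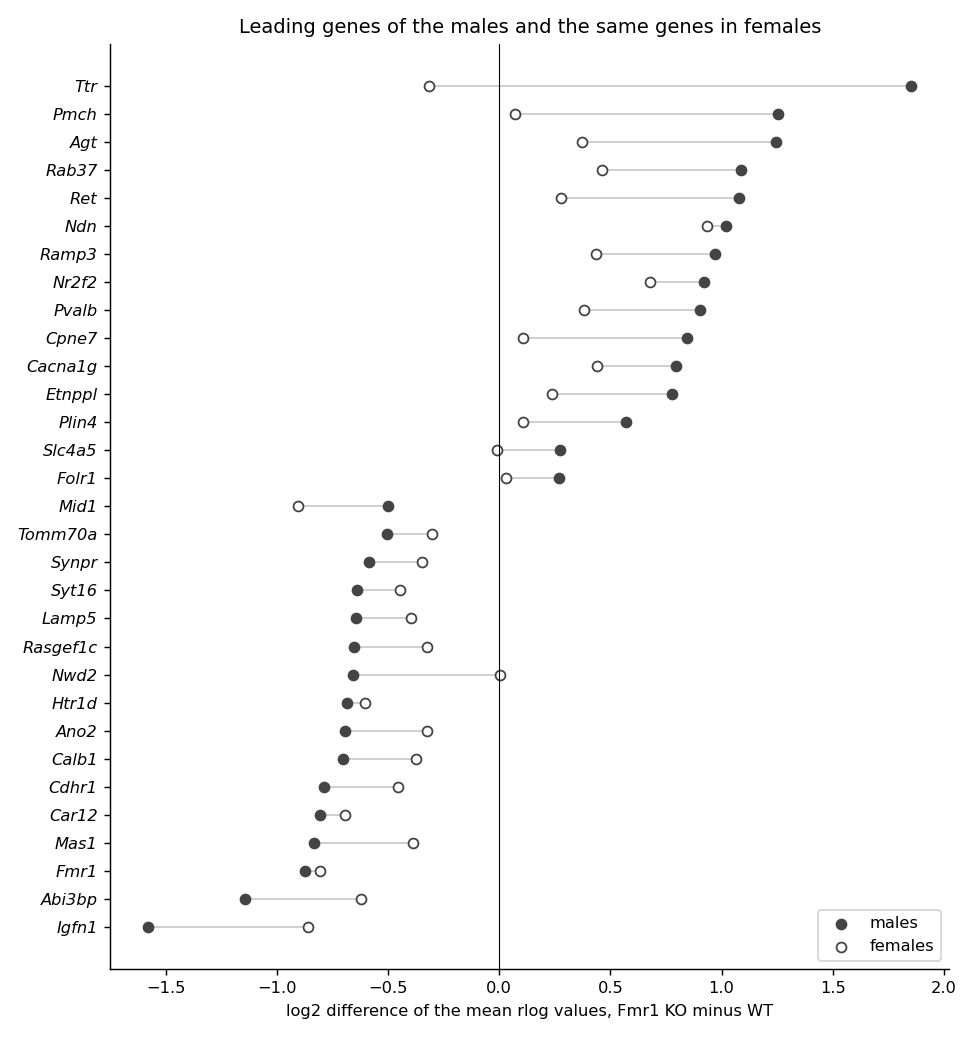
The log2 difference of the mean rlog values (*Fmr1* KO minus WT, horizontal axis) of *Fmr1*, the leading genes named above and the genes with the smallest p-values, in males (filled points) and in females (open points). Most female values have the sign of the male value and lie nearer to 0, *Fmr1* and *Ndn* nearly coincide, and *Ttr* lies at 1.85 in males and -0.32 in females.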

How the data were processed

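The study sequenced stranded mRNA libraries of ventral striatum, 1 per mouse. The authors aligned the reads to mm10 with STAR and used DESeq2. The deposited values are rlog values on a log2 scale, which the authors computed from the counts of all 15 mice and which include their library size correction. Counts were not used here, so depth is unknown and precision rests on the spread between mice. Genes had to average 3 or more in rlog over the 15 mice. A linear model with empirical Bayes moderation and a variance trend was fitted to the males (limma 3.58.1, R 4.3.3) and p-values were adjusted by Benjamini-Hochberg over 15261 genes. The fit was also run on simulated data, whose outcome is not reported here and backs no result above.

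Same-numbered mice of both genotypes deviated together from their group means (r = 0.128, 0.346 and 0.374 for replicates 1, 3 and 4). Some mice with different numbers did so too (r = 0.248 for *Fmr1* KO male 1 with WT male 3, 0.234 for *Fmr1* KO male 4 with WT male 2 and 0.129 for *Fmr1* KO male 4 with WT male 1). The pairing comes only from this check and from the numbers in the labels, so a fit with the replicate block is given beside *Fmr1*. Nothing in the labels names litters, so p-values measure only the spread between these mice.

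Named genes are *Fmr1*, the 12 lowest and 12 highest differences among genes with an unadjusted p under 0.05 and no overlap, the 10 smallest p-values, and up to 4 members of each of 64 lists by p. Unnamed transcripts were passed over. The rule gives 264 genes, of which the text names 131. Some genes that it gives are not reported here. The members and lists were chosen with earlier results of these data known. Alternatives were another minimum, scaling, weights, moderation, covariates, the block and leaving out each mouse. Of the tested genes, 15119 were matched to GENCODE (GRCm38) and 98 more to RefSeq.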

Additional observations from a re-analysis of the deposited data

Results flagged for a closer look

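Among the 4 WT males, 1 mouse lay far from the other 3 in 14 of the 185 genes and list scores examined, by a gap that takes up nearly the whole range of the group. Chance alone sets apart about 1 group in 20. In 10 of the 14 the mouse was WT male 3. Its rlog values were 11.31 in *Lamp5* and 9.61 in *Slc35d3*, below the other WT males, and 4.96 in *Pmch*, 9.996 in *Adcy6*, 10.95 in *Elavl4* and 7.31 in *Cbln1*, above them. In each of these 6 genes it lay nearer to the *Fmr1* KO males than the other WT males did. Its list scores were the highest of the WT males for opioid peptides and receptors (0.19), GABA-A receptor subunits (0.24), imprinted neuronal genes (0.25) and genes near *Fmr1* (0.10). WT male 1 was apart in *Map2k1* (12.47) and *Rpl5* (10.59), WT male 2 in *Syt16* (10.76) and WT male 4 in *Creb5* (7.67). The *Fmr1* KO males, at 3 mice, were too few for this check.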

How the results depend on the processing

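*Fmr1* was lower under every setting. The difference was -0.87 in the ordinary linear model (adjusted p = 0.0960), -0.85 with the replicate block (0.0729), -0.81 with the score of the projection neuron markers in the fit (0.356) and -0.80 with the neighboring-region score (0.181), and these 4 lost the call. Leaving out each mouse gave -0.92 to -0.84, with the call lost without *Fmr1* KO male 1 (adjusted p = 0.0608), *Fmr1* KO male 3 (0.0760) or WT male 4 (0.0533). The count of genes past an adjusted p of 0.05 was 0 under those 4 settings, 1865 with sample quality weights and 0 to 322 with a mouse left out. The count past an unadjusted p of 0.05 was 847 with the neighboring-region score, 1273 with the projection neuron score, 4903 with weights and 1410 to 4017 with a mouse left out, and it was 2202 with the replicate block and 2239 in the ordinary linear model. Leaving out a mouse gave 2550 to 4935 genes with no overlap, since fewer mice overlap less often. With the projection neuron score, *Adcy5* was at 0.0513 and *Drd2* at 0.214, and with the neighboring-region score *Drd2* was at 0.0749, against negative differences without them. No other gene in the text changed sign. Of the 264 genes that the naming rule gives, 29 changed sign under some alternative, 20 of them only under a covariate. Of the named genes, 116 gained the call with weights, 44 without WT male 3 and 1 without *Fmr1* KO male 4. Of 918 list medians under the alternatives, 104 moved by more than the spread between mice. The replicate block changed no call but that of *Fmr1*. Depth is unknown, and rlog shrinkage limits what can be seen in genes of low level.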

Other observations

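Some lists outside the comparisons above were read in the same way, with counts of members at an unadjusted p under 0.05. Interferon-induced genes had 15 of 17 members on the higher side but 0 past that p, with a median of 0.07. Synaptic vesicle and release genes had 22 of 30 on the lower side, 4 lower and 3 higher (median -0.05, and -0.09 without KO male 4). Genes of PI3K and mTOR signaling had 1 lower and 1 higher of 21 (median -0.03, and -0.06 without WT male 1). Acetylcholine receptors had 1 lower and 3 higher of 14 (median 0.05, 0.02 without KO male 4 and 0.08 without KO male 3), and endocannabinoid genes 1 lower and 1 higher of 8. Striatal interneuron markers had 2 higher and 0 lower of 10 (median 0.09, 0.22 without KO male 1 and -0.04 without KO male 4), *Pvalb* among them. Heat shock genes had 2 higher and 0 lower of 12 (median 0.02, -0.03 without KO male 4 and 0.07 without WT male 4). Of all 15261 tested genes, 116 had no overlap in the same direction in both sexes and 7 in opposite directions. In males alone, 15.2% of the tested genes had no overlap. Whether these counts exceed what chance gives was not tested.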
